A study of Mus musculus with 9 samples.

Results

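The 36 genes described here form the contractile program of smooth muscle: actins, myosins and their regulators, the scaffold that anchors them, 2 transcription factors, ion channels and small heat shock proteins. They were chosen by name, with earlier results of these data known, so the counts below describe the genes and do not test them as a set. Each was read at 1 probe set, the one with the highest mean over all 9 arrays among those that the platform annotation ties to that gene alone. All 36 were found, of 18193 genes that can be read this way. RNA of whole uteri from pregnant mice on gestation day (GD) 3.5 was measured on Affymetrix Mouse Genome 430 2.0 arrays, which give 1 fluorescence intensity per probe set, with 3 arrays per genotype. The double knockout, labelled Mig-6 d/d Erbb2 d/d, had floxed alleles of both genes with Pgr cre/+. It so lacked Mig-6 (gene symbol Errfi1) and Erbb2 in cells that express the progesterone receptor. Mig-6 d/d mice carried Pgr cre/+ with floxed Mig-6 and lacked Mig-6 but not Erbb2. Control mice carried floxed Mig-6, or floxed Mig-6 and floxed Erbb2, in both cases without Pgr cre. The sources used here do not say which control array had which genotype. The Cre allele lies in the Pgr gene, and the study used Pgr cre/cre mice as progesterone receptor knockouts. Both knockouts therefore differed from control by this allele too. All were females of a mixed C57BL/6 and 129P2/OlaHsd background. The sample descriptions give an age of 2 weeks, which differs from the adult age in the study's methods. RNA of several mice was pooled per genotype. The sources do not say if each array had a pool of its own, so p-values measure only the spread between arrays, which may be technical.

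Smooth muscle contracts when calcium, bound to calmodulin, switches on myosin light chain kinase, which phosphorylates the light chains of the thick filament so that myosin pulls on actin. Myosin phosphatase reverses this step, and dense plaques and intermediate filaments pass the force on to the membrane. In the uterus these genes mark the myometrium, the muscle wall, and also the muscle coat of blood vessels. Many of them are activated by serum response factor (SRF) with its cofactor myocardin, which act at a DNA element called the CArG box. The progesterone receptor, whose gene drove the Cre, is expressed in uterine epithelium, stroma and myometrium.

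The targeted genes were read first as a check of the labels. Errfi1 read 76.1, 29.8 and 40.3 in the double knockout, 15.1, 15.96 and 255 in Mig-6 d/d and 454, 564 and 286 in control uteri, in the order of replicates 1 to 3, which holds for all values below. The array labelled Mig-6 d/d replicate 3 therefore stood near the lowest control, far above the other 2 arrays of its group. The counts and medians of the smooth muscle genes and the counts of the other lists are given below with and without it. Erbb2 read 18.3, 9.88 and 18.5 in the double knockout, 46.6, 39.5 and 44.5 in Mig-6 d/d and 29.4, 36.7 and 45.7 in control uteri, so the double knockout was lowest on every array. The progesterone receptor Pgr, a defining gene of the uterus, read 729, 791 and 986 in the double knockout, 873, 798 and 588 in Mig-6 d/d and 1065, 1107 and 1613 in control uteri. Every array of both knockouts was below every control, though neither difference was called. Against control, effects of the Pgr cre allele and of the gene losses cannot be told apart. Each smooth muscle gene exceeded the table's median intensity of 8.07 on all 9 arrays. Array medians over all probe sets ran from 7.87 to 8.24.

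Most smooth muscle genes were lower on average in Mig-6 d/d uteri than in either other genotype, and none was called between the double knockout and control. A gene was called when its Benjamini-Hochberg adjusted p over all 45037 probe sets (limma) was under 0.05 and its change exceeded 1.5-fold. Against control, 8 of the 36 were called lower in Mig-6 d/d uteri and 0 higher, where 1.81% of all genes were called lower and 2.55% higher. The 8 were Hspb6, Synpo2, Kcnma1, Ppp1r14a, Cacna1c, Cav1, Myl6 and Pdlim3. Over all 36 the median log2 fold change was -0.59, against -0.03 over all genes, and 35 were lower on average, against 55.2% of all genes. Without Mig-6 d/d replicate 2 the median was -0.39. For 29 of the 36 every Mig-6 d/d array was below every control array, against 14.1% of all genes. Without the array labelled Mig-6 d/d replicate 3, whose Errfi1 level stood near control, 3 of the 36 were called lower, against 0.671% of all genes. The median was then -0.67, and 32 did not overlap, against 18.5% of all genes. Fitted with only the 6 arrays compared, 4 genes were called: Cav1, Hspb6, Pdlim3 and Synpo2. The share of all genes called was not taken in that fit.

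In the double knockout compared with Mig-6 d/d, 20 of the 36 were called higher and 0 lower, where 3.73% of all genes were called higher and 3.76% lower. The median log2 fold change was 0.68, against 0.03 over all genes, and 35 were higher on average, against 56.1% of all genes. All arrays of the double knockout exceeded all Mig-6 d/d arrays for 32 of the 36, against 18.6% of all genes. Without the array labelled Mig-6 d/d replicate 3, 14 of the 36 were called higher, against 2.49% of all genes. The median was then 0.76, and 33 did not overlap, against 23.1% of all genes. Leaving it out moved the log2 fold change of no smooth muscle gene by more than 0.22. Both comparisons use the same Mig-6 d/d arrays, so they are not independent of each other. In the double knockout compared with control, 0 were called in either direction, where 0.214% of all genes were called higher and 0.198% lower. In whole tissue, fewer cells that express these genes and less of their RNA per cell cannot be told apart.

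**Figure D1:**
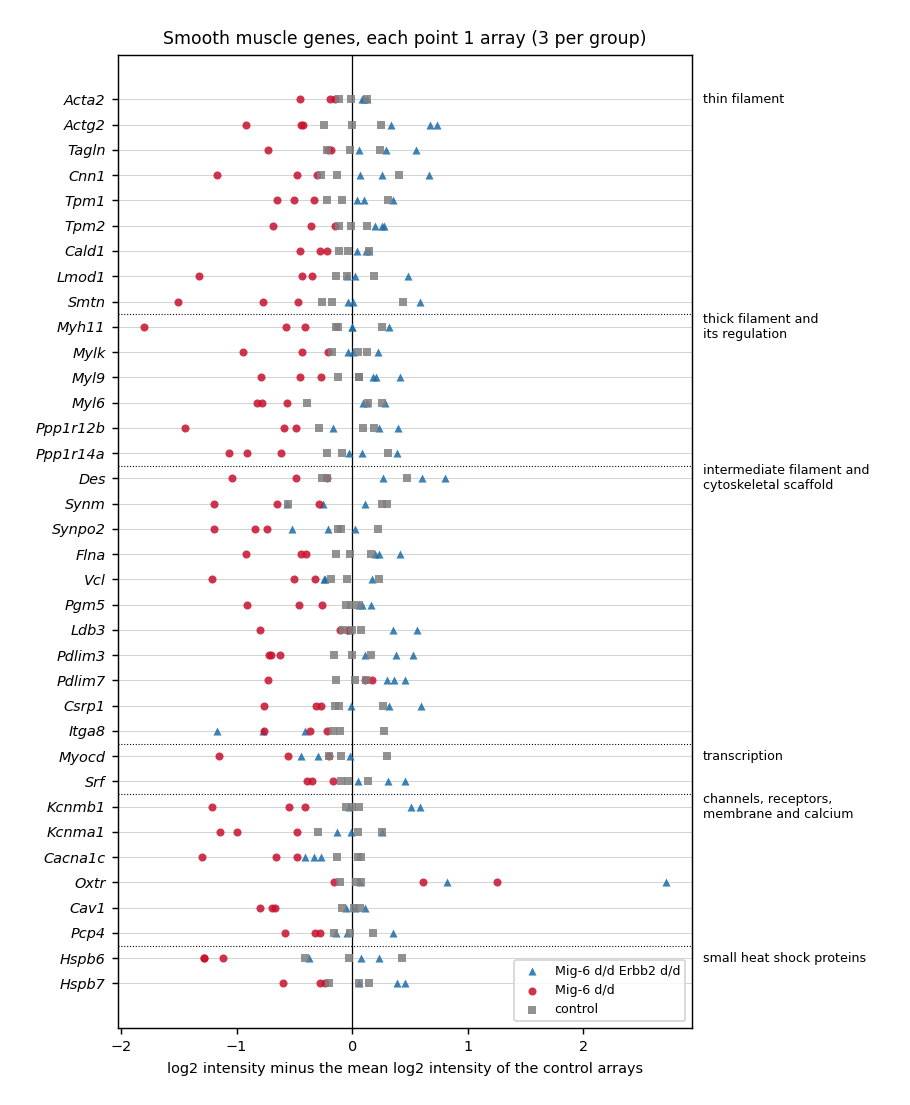
Log2 intensity of each smooth muscle gene on each of the 9 arrays minus the mean log2 intensity of its 3 control arrays, 1 point per array, for the double knockout (blue triangles, Mig-6 d/d Erbb2 d/d), Mig-6 d/d (red circles) and control (grey squares), with genes grouped by role. The red points lie left of all grey points for 29 of the 36 genes, and Oxtr is the exception on the right.

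Promoter windows of the RefSeq table (GRCm38.p6, 250 bases before to 50 after each start) were found for 32 of the 36 genes, 41 windows in all. Actg2, Myh11, Tagln and Myocd had none. The windows were searched for the CArG box, CC and GG around 6 letters that are each A or T, a pattern that reads the same on both strands. It stood in 6 of the 41 windows (14.6%), those of Srf, Myl6, Myl9, Vcl and Ldb3, and in 1.63% of 32851 windows of all genes. The Ldb3 windows overlap and hold the same box. Counted by gene, 5 of 32 (15.6%) held the box, against 1.81% of all genes with a window. With at most 1 of the 6 middle letters a G or C, 13 of the 41 windows (31.7%) and 9.98% of all windows held it. A match describes the letters and not a bound site. The 250 bases nearest the start that each window allows for 4 of the genes are printed here with these boxes in capitals: Srf, the factor's own gene, at chr17:46556163-46556412 (minus strand), the myosin light chain genes Myl6, at chr10:128493010-128493259 (minus strand), and Myl9, at chr2:156775214-156775463 (plus strand), and Acta2, which held only boxes with 1 G or C, at chr19:34255374-34255623 (minus strand). Each reads 5′ to 3′ along the gene.
Srf: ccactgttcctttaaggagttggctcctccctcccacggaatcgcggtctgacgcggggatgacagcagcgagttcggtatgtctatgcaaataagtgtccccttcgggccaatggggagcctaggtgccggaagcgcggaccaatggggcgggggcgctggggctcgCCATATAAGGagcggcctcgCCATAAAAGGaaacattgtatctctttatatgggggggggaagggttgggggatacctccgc
Myl6: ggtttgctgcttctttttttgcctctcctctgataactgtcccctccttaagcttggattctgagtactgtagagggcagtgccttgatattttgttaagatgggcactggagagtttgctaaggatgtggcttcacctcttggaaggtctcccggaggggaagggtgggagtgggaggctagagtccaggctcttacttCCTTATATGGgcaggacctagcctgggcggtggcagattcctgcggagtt
Myl9: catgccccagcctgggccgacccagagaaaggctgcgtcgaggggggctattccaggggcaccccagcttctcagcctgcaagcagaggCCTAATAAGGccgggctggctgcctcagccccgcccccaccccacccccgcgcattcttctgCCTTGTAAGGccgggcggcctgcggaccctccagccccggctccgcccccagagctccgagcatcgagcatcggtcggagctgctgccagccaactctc
Acta2: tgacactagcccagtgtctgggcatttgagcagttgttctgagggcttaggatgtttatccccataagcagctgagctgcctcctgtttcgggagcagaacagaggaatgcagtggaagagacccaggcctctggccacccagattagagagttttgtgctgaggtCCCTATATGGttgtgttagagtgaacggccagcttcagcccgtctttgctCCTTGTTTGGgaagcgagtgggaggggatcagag
The Srf boxes began 82 and 62 bases before the start, the Myl6 box 50 bases, the Myl9 boxes 161 and 99 bases and the Acta2 boxes 84 and 34 bases. Myl6 had another start, whose window at chr10:128493837-128494136 (minus strand) held no box, even with 1 G or C allowed.

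Of the 9 thin filament genes, 5 were called higher in the double knockout than in Mig-6 d/d uteri, and 0 in Mig-6 d/d against control. There 8 were lower with an unadjusted p under 0.05, against 12.7% of all genes, and the lowest adjusted p was 0.0957. Actg2, the smooth muscle gamma-actin of visceral muscle, read 2672, 2031 and 2568 in the double knockout, 1199.7, 854 and 1189 in Mig-6 d/d and 1607, 1911 and 1364 in control uteri. The 3 groups did not overlap, with the double knockout highest and Mig-6 d/d lowest. Means were 2424 ± 344 in the double knockout, 1081 ± 196 in Mig-6 d/d and 1627 ± 274 in control uteri (SD, n = 3 each). The double knockout was 2.25-fold higher than Mig-6 d/d (log2 fold change 1.17, SE 0.17, adjusted p = 0.00550). Acta2, the smooth muscle alpha-actin that is the usual marker of these cells, read 6941, 6723 and 6818 in the double knockout, 5565, 4635 and 5709 in Mig-6 d/d and 6302, 6933 and 5842 in control uteri. All 3 Mig-6 d/d arrays were lowest, but the differences were small and were not called. The log2 fold change was -0.26 in Mig-6 d/d against control (adjusted p = 0.231) and 0.37 in the double knockout over Mig-6 d/d (adjusted p = 0.0739).

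Smtn (smoothelin), a cytoskeletal protein of contractile smooth muscle cells, read 469, 314 and 306 in the double knockout, 184, 110.0 and 226 in Mig-6 d/d and 260.5, 424 and 277 in control uteri. Control replicate 2 and double knockout replicate 1 stood well above their groups, and the Mig-6 d/d arrays were below all others (log2 fold change 1.10, SE 0.28, adjusted p = 0.0449 for the double knockout over Mig-6 d/d). Cnn1 (calponin), which binds actin and restrains myosin, read 2092, 1375 and 1573 in the double knockout, 1066, 585 and 943 in Mig-6 d/d and 1202, 1742 and 1090.2 in control uteri. The same pair of arrays was high, and Mig-6 d/d replicate 2 was lowest of all (log2 fold change 0.98, SE 0.25, adjusted p = 0.0453). The tropomyosins lie along the actin filament. Tpm1 read 2914, 2354 and 2453 in the double knockout, 1818, 1452 and 1617 in Mig-6 d/d and 2148, 2842 and 1960.2 in control uteri (log2 fold change 0.66, SE 0.15, adjusted p = 0.0312 for the double knockout over Mig-6 d/d). Tpm2 read 4826, 4579 and 4768 in the double knockout, 3121, 2489.6 and 3604 in Mig-6 d/d and 3963, 4361 and 3703 in control uteri (log2 fold change 0.64, SE 0.13, adjusted p = 0.0211). For Tpm2 the 3 groups did not overlap, while for Tpm1 double knockout and control arrays lay among each other. The other 3, Tagln (SM22), Cald1 (caldesmon) and Lmod1 (leiomodin, which starts actin filaments), lay higher in the double knockout than in Mig-6 d/d by log2 fold changes of 0.67, 0.42 and 0.86 and were not called. Cald1 had an adjusted p of 0.0398 but stayed under the 1.5-fold limit.

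All 6 genes of the thick filament and its regulation were lower on every Mig-6 d/d array than on every control and double knockout array. Myh11, the smooth muscle myosin heavy chain and the defining gene of this cell type, read 1461, 1170.4 and 1164 in the double knockout, 879.8, 336 and 784 in Mig-6 d/d and 1073, 1402 and 1063 in control uteri. Mig-6 d/d replicate 2 was far below the other 2 of its group, and neither comparison was called. Its values were log2 fold change -0.93, SE 0.31, adjusted p = 0.132 for Mig-6 d/d against control. They were log2 fold change 1.03, SE 0.31, adjusted p = 0.0746 for the double knockout over Mig-6 d/d. Ppp1r14a, which encodes CPI-17, an inhibitor of myosin phosphatase, read 438, 327 and 354 in the double knockout, 218, 159 and 178 in Mig-6 d/d and 314, 412 and 287 in control uteri. The Mig-6 d/d arrays were lowest, and both comparisons were called. Mig-6 d/d was 1.82-fold lower than control (log2 fold change -0.86, SE 0.17, adjusted p = 0.0288), and the double knockout was 2.02-fold higher than Mig-6 d/d (log2 fold change 1.01, SE 0.17, adjusted p = 0.00919).

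Myl6, the essential light chain of smooth muscle and nonmuscle myosin, read 159, 177 and 155 in the double knockout, 82.6, 84.8 and 98.8 in Mig-6 d/d and 111, 160.1 and 175 in control uteri. Mig-6 d/d arrays were close together, whereas control replicate 1 lay below the other 2 controls, and both comparisons were called. Its values were log2 fold change -0.72, SE 0.16, adjusted p = 0.0405 for Mig-6 d/d against control, and log2 fold change 0.89, SE 0.16, adjusted p = 0.0120 for the double knockout over Mig-6 d/d. Myl9, the regulatory light chain that the kinase phosphorylates, read 4184, 3555 and 3615 in the double knockout, 2595, 1815 and 2297 in Mig-6 d/d and 3268, 3269.5 and 2883 in control uteri. Its 3 groups did not overlap, and only the double knockout over Mig-6 d/d was called (log2 fold change 0.77, SE 0.14, adjusted p = 0.0114). Ppp1r12b, a targeting subunit of myosin phosphatase, read 429, 384 and 290.1 in the double knockout, 233, 119 and 217 in Mig-6 d/d and 268, 348 and 372 in control uteri. Again replicate 2 was the lowest of the Mig-6 d/d arrays by a wide margin (log2 fold change 0.99, SE 0.25, adjusted p = 0.0428 for the double knockout over Mig-6 d/d). Mylk, the light chain kinase, was not called (log2 fold changes -0.53 in Mig-6 d/d against control and 0.60 in the double knockout over Mig-6 d/d).

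Among the 11 genes of the scaffold, 2 were called lower in Mig-6 d/d uteri than in control uteri and 6 higher in the double knockout than in Mig-6 d/d. Pdlim3, a protein that binds alpha-actinin where actin is anchored, read 1025, 923 and 766 in the double knockout, 462, 437 and 431 in Mig-6 d/d and 796, 711 and 637 in control uteri. The Mig-6 d/d arrays lay within a narrow range below all others. Means were 905 ± 130.1 in the double knockout, 443 ± 16.8 in Mig-6 d/d and 714 ± 79.3 in control uteri (SD, n = 3 each). Both comparisons were called (log2 fold change -0.68, SE 0.13, adjusted p = 0.0230 for Mig-6 d/d against control and log2 fold change 1.02, SE 0.13, adjusted p = 0.00294 for the double knockout over Mig-6 d/d). Synpo2 (myopodin), an actin-bundling protein, read 1281, 1093 and 877 in the double knockout, 702, 549 and 755 in Mig-6 d/d and 1158, 1469 and 1177 in control uteri. Its Mig-6 d/d arrays were below all others, and both comparisons were called (log2 fold change -0.93, SE 0.17, adjusted p = 0.0217, and log2 fold change 0.69, SE 0.17, adjusted p = 0.0382). Des (desmin), the intermediate filament of muscle, read 909, 625 and 791 in the double knockout, 373, 253 and 447 in Mig-6 d/d and 449, 725 and 435 in control uteri. Control replicate 2 stood apart from the other 2 controls, which were close to the array labelled Mig-6 d/d replicate 3. Only the double knockout over Mig-6 d/d was called (log2 fold change 1.14, SE 0.25, adjusted p = 0.0245).

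Flna (filamin A), which crosslinks actin, read 1661, 1466 and 1430.4 in the double knockout, 949, 661 and 922 in Mig-6 d/d and 1133, 1401 and 1231 in control uteri. The 3 groups did not overlap, and the double knockout was 1.82-fold higher than Mig-6 d/d (log2 fold change 0.86, SE 0.15, adjusted p = 0.00985). Mig-6 d/d against control was not called (log2 fold change -0.59, adjusted p = 0.0625). Csrp1, a LIM protein of actin bundles, read 1827, 1199 and 1507 in the double knockout, 1005, 714 and 971 in Mig-6 d/d and 1118, 1452 and 1093 in control uteri (log2 fold change 0.75, SE 0.19, adjusted p = 0.0415 for the double knockout over Mig-6 d/d). Pgm5 (aciculin), a protein of adherens-type junctions in muscle, read 308, 287 and 292 in the double knockout, 229.7, 146 and 201 in Mig-6 d/d and 274, 288 and 266 in control uteri (log2 fold change 0.65, SE 0.15, adjusted p = 0.0290). In both, all Mig-6 d/d arrays were below all others. The other 5, Synm, Vcl, Ldb3, Pdlim7 and Itga8, were not called in any comparison. Itga8, the alpha8 integrin subunit, read 65.0, 50.7 and 38.4 in the double knockout, 67.3, 50.8 and 74.3 in Mig-6 d/d and 105, 80.2 and 76.9 in control uteri, so that all double knockout arrays were below all controls. It was the only gene of the 36 with a lower mean in the double knockout than in Mig-6 d/d (log2 fold change -0.79, adjusted p = 0.259 for the double knockout against control).

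**Figure D2:**
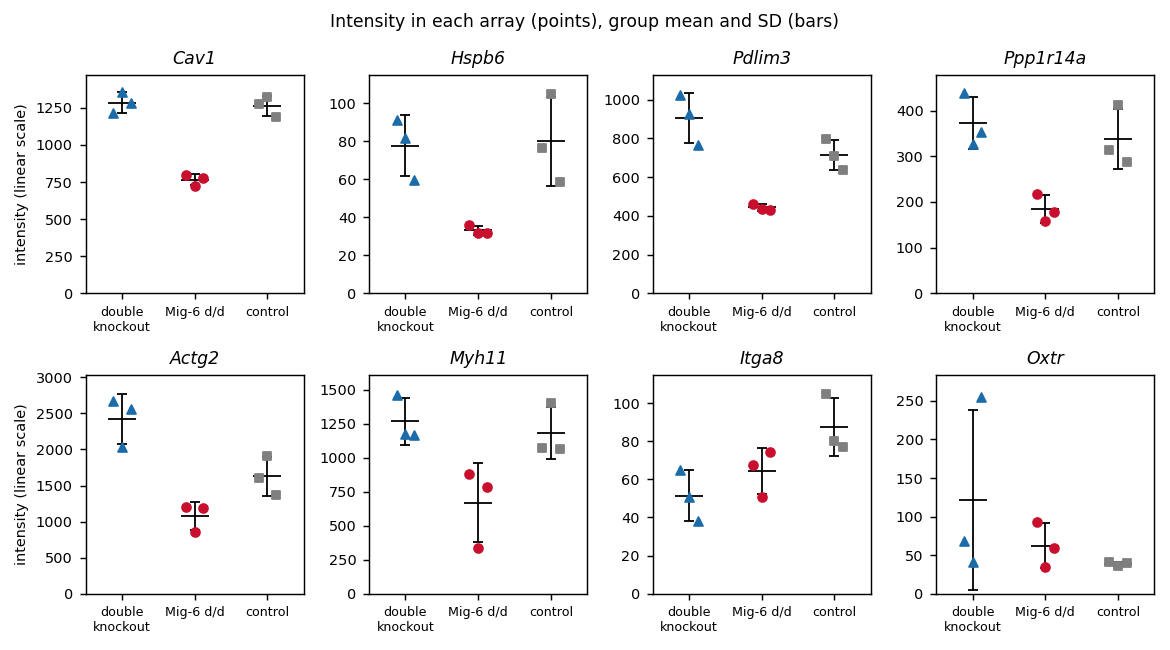
Intensity on a linear scale of 8 smooth muscle genes on each array (points), with the group mean and SD (bars, n = 3), for the double knockout, Mig-6 d/d and control from left to right in each panel. Cav1, Hspb6, Pdlim3, Ppp1r14a, Actg2 and Myh11 have their lowest 3 points in Mig-6 d/d, Itga8 has them spread over both knockouts and Oxtr has 1 double knockout array at 255.

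Both transcription factor genes were uncalled in every comparison, though Srf gained a call in some refits. It was called higher in the double knockout than in Mig-6 d/d when quantile normalization was repeated. The same held without double knockout replicate 3 and without Mig-6 d/d replicate 2. Srf, which binds the CArG box, read 259.9, 235 and 196 in the double knockout, 144, 169 and 149 in Mig-6 d/d and 184, 209 and 177 in control uteri. Every Mig-6 d/d array was below all others at this probe set. The double knockout exceeded Mig-6 d/d with an adjusted p of 0.0241 but by 1.49-fold, just under the limit (log2 fold change 0.58, SE 0.13). Another Srf probe set read 73.8, 70.9 and 65.4 in the double knockout, 47.5, 49.1 and 47.6 in Mig-6 d/d and 48.1, 50.8 and 47.9 in control uteri. There Mig-6 d/d overlapped control (log2 fold change -0.03, adjusted p = 0.926), and the double knockout lay above control (log2 fold change 0.52, adjusted p = 0.0429) but under the fold limit. Myocd (myocardin), the cofactor that commits cells to smooth muscle, read 63.9, 52.8 and 47.6 in the double knockout, 56.4, 29.1 and 44.1 in Mig-6 d/d and 80.0, 60.5 and 56.3 in control uteri. The groups overlapped, and its mean was lower in Mig-6 d/d uteri than in control (log2 fold change -0.64, SE 0.23, adjusted p = 0.166) without passing the test.

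Of the 6 genes for channels, receptors, membrane and calcium, 3 were called lower in Mig-6 d/d uteri than in control and 3 higher in the double knockout than in Mig-6 d/d. Cav1 (caveolin-1), which forms the membrane pits called caveolae, read 1214, 1359 and 1281 in the double knockout, 794, 726 and 778 in Mig-6 d/d and 1278, 1320.0 and 1189 in control uteri. The spread within each group was small, the Mig-6 d/d arrays were well below all others, and double knockout and control arrays lay among each other. Means were 1285 ± 72.7, 766 ± 35.5 and 1263 ± 66.8 for the double knockout, Mig-6 d/d and control (SD, n = 3 each). Cav1 was 1.65-fold lower in Mig-6 d/d uteri than in control (log2 fold change -0.72, SE 0.09, adjusted p = 0.00884). In the double knockout it was 1.68-fold higher than in Mig-6 d/d (log2 fold change 0.75, SE 0.09, adjusted p = 0.00294). Cav1 is also expressed in endothelium and stroma.

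Kcnma1 and Kcnmb1 encode the pore and the beta subunit of the BK channel, which lets potassium out and quiets the muscle. Kcnma1 read 27.6, 21.0 and 22.96 in the double knockout, 11.6, 10.5 and 16.6 in Mig-6 d/d and 27.5, 23.8 and 18.8 in control uteri. It was called in both comparisons (log2 fold change -0.87, SE 0.19, adjusted p = 0.0407 for Mig-6 d/d against control and log2 fold change 0.91, SE 0.19, adjusted p = 0.0226 for the double knockout over Mig-6 d/d). Kcnmb1 read 30.9, 20.2 and 29.3 in the double knockout, 15.5, 8.86 and 14.1 in Mig-6 d/d and 20.6, 21.4 and 19.8 in control uteri. It was called only in the double knockout over Mig-6 d/d (log2 fold change 1.08, SE 0.21, adjusted p = 0.0172), with log2 fold change -0.72, adjusted p = 0.0976 in Mig-6 d/d against control. For both, all Mig-6 d/d arrays were lowest. Cacna1c, the pore of the L-type calcium channel that starts contraction, read 45.7, 43.4 and 47.6 in the double knockout, 41.3, 23.4 and 36.4 in Mig-6 d/d and 52.5, 59.5 and 60.6 in control uteri. At this probe set it was lowest in Mig-6 d/d and intermediate in the double knockout, where all arrays were below all controls, and only Mig-6 d/d against control was called (log2 fold change -0.81, SE 0.18, adjusted p = 0.0410). Its other probe set read 47.0, 32.0 and 29.9 in the double knockout, 21.0, 14.7 and 22.9 in Mig-6 d/d and 29.0, 32.8 and 38.4 in control uteri. There the double knockout overlapped control (log2 fold change 0.10) and was called higher than Mig-6 d/d (log2 fold change 0.89, SE 0.21, adjusted p = 0.0313). Oxtr, the oxytocin receptor, read 68.7, 40.9 and 255 in the double knockout, 92.6, 34.9 and 59.5 in Mig-6 d/d and 41.1, 36.2 and 39.8 in control uteri. A single double knockout array and 1 Mig-6 d/d array were high, the groups overlapped, and no comparison was called (adjusted p = 0.678 for the double knockout against control). Pcp4, a calmodulin-binding protein, was not called in any comparison (log2 fold changes -0.40 in Mig-6 d/d against control and 0.45 in the double knockout over Mig-6 d/d).

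Hspb6 (HSP20), a small heat shock protein that is phosphorylated when smooth muscle relaxes, read 91.4, 81.8 and 59.8 in the double knockout, 35.9, 31.9 and 31.9 in Mig-6 d/d and 76.3, 105 and 58.7 in control uteri. The 3 Mig-6 d/d arrays were nearly equal and below all others, while both other groups spread widely and overlapped. Its fold changes were the largest of the 36 in both comparisons. It was 2.35-fold lower in Mig-6 d/d uteri than in control (log2 fold change -1.23, SE 0.21, adjusted p = 0.0167) and 2.31-fold higher in the double knockout than in Mig-6 d/d (log2 fold change 1.21, SE 0.21, adjusted p = 0.0101). Hspb7, its muscle relative, read 33.6, 26.8 and 35.4 in the double knockout, 21.2, 17.0 and 21.8 in Mig-6 d/d and 22.3, 26.8 and 28.5 in control uteri. Here too Mig-6 d/d was lowest on every array, and only the double knockout over Mig-6 d/d was called (log2 fold change 0.67, SE 0.15, adjusted p = 0.0248).

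**Figure D3:**
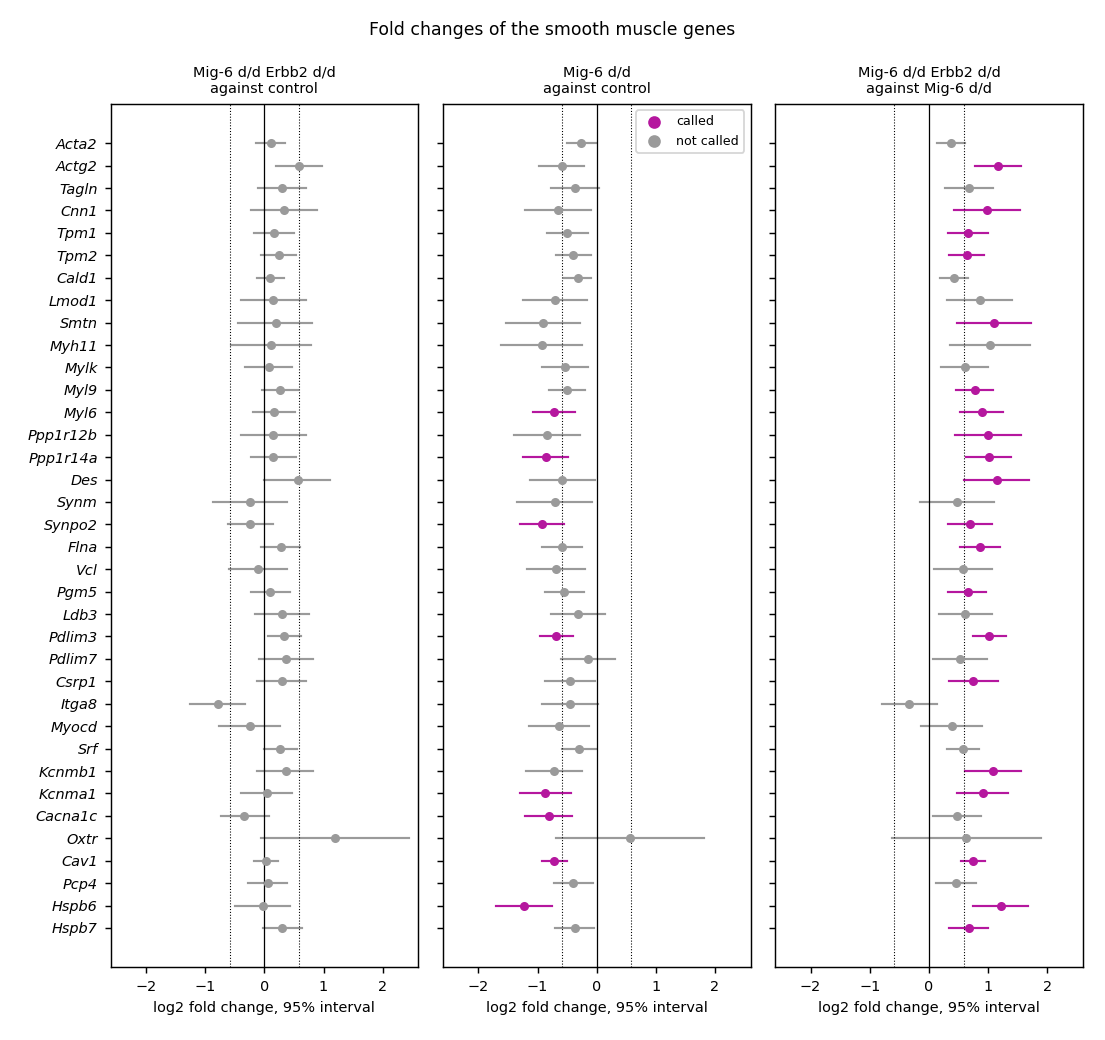
Log2 fold change (points) with its 95% interval (lines) of each smooth muscle gene in the double knockout against control, Mig-6 d/d against control and the double knockout over Mig-6 d/d, purple where called; dotted lines mark a 1.5-fold change. No gene is called on the left, 8 are called lower in the middle and 20 are called higher on the right.

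Between the double knockout and control the smooth muscle genes differed little. The median log2 fold change was 0.16, against 0.01 over all genes, with 29 of 36 higher on average, against 52.7% of all genes. Leaving out double knockout replicate 1 gave a median of 0.08, control replicate 3 one of 0.09 and control replicate 2 one of 0.27. At an unadjusted p under 0.05 there were 4 of the 36, Actg2, Des and Pdlim3 (higher) and Itga8 (lower), against 7.97% of all genes. For 14 of the 36 the 95% interval of the difference lay within 1.5-fold in either direction, among them Acta2 (-0.14 to 0.35 on the log2 scale), Cav1 (-0.18 to 0.23) and Cald1 (-0.13 to 0.34). For the others it did not: Actg2 had 0.19 to 0.97, Myh11 -0.57 to 0.79 and Oxtr -0.05 to 2.45. All double knockout arrays were above all controls for 5 genes, Actg2, Tpm2, Myl9, Flna and Pdlim7, against 6.52% of all genes. They were below all controls for 2, Itga8 and Cacna1c, against 5.32% of all genes. The methods' t-test, without adjustment, called 1 of the 36 at the 1.5-fold limit, Itga8, against 1.16% of all genes. It called 11 lower in Mig-6 d/d against control, against 2.66% of all genes, and 21 higher in the double knockout over Mig-6 d/d, against 4.64%. After Benjamini-Hochberg adjustment it called 0 in each comparison.

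The 3 Mig-6 d/d arrays did not carry the difference equally. Relative to the control mean, the median log2 difference over the 36 genes was 0.35, 0.06 and 0.09 on the double knockout arrays, -0.36, -0.92 and -0.44 on the Mig-6 d/d arrays and -0.02, 0.13 and -0.13 on the control arrays. Mig-6 d/d replicate 2 was the lowest of its group for 33 of the 36 genes and the lowest of all 9 arrays for 32, whereas double knockout replicate 1 was the highest of all 9 for 23. The array labelled Mig-6 d/d replicate 3, whose Errfi1 level stood near control, was below the control mean for 34 of the 36 genes.

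Calls depended on single arrays. The share of all genes called was taken again only without the array labelled Mig-6 d/d replicate 3, and it fell as well. In Mig-6 d/d against control it went from 1.81% to 0.671% called lower. In the double knockout over Mig-6 d/d it went from 3.73% to 2.49% called higher. In Mig-6 d/d against control the 8 called genes became 2 without Mig-6 d/d replicate 1 (Cacna1c and Cav1), 3 without replicate 2 (Cav1, Hspb6 and Synpo2), 3 without the array labelled replicate 3 (Cav1, Kcnma1 and Synpo2) and 2 without control replicate 2 (Cav1 and Hspb6). Without any 1 double knockout array, which enter only the estimate of the spread, 5 stayed called: Cav1, Hspb6, Pdlim3, Ppp1r14a and Synpo2. In the double knockout over Mig-6 d/d the number called fell from 20 to 7, 12 and 11 without double knockout replicates 1, 2 and 3. It was 10 and 10 without Mig-6 d/d replicates 1 and 2, and 14 without the array labelled Mig-6 d/d replicate 3. The counts without double knockout replicate 3 and without Mig-6 d/d replicate 2 each include Srf, which was not among the 20. Actg2, Cav1, Flna, Hspb6, Pdlim3 and Ppp1r14a kept their call there whichever of the 9 arrays was left out, and Cav1 did so in both comparisons. Myl9 lost its call only without double knockout replicate 1, Myl6 only without double knockout replicate 2 and Kcnmb1 without double knockout replicate 1 or 3. The other 11 lost it without 4 to 7 of the arrays.

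Many of the genes are covered by further probe sets, which read other parts of the transcript. The 36 genes had 77 probe sets, and 41 of these, for 22 genes, were not the ones used. Of the 24 that lay above the table median, 23 were lower in Mig-6 d/d uteri than in control (median log2 fold change -0.54) and 23 lay higher in the double knockout than in Mig-6 d/d (median 0.69). The 17 at or below it had medians of -0.15 and 0.06. Among the 41, 1 was called lower in Mig-6 d/d against control, where 1.09% of all probe sets were, and 9 were called higher in the double knockout over Mig-6 d/d, where 2.38% were. Probe sets of 1 gene could disagree in size. Acta2, uncalled above, was called higher in the double knockout than in Mig-6 d/d at another of its probe sets, which read 134, 88.7 and 115 in the double knockout, 61.4, 48.3 and 66.4 in Mig-6 d/d and 88.6, 125 and 74.6 in control uteri (log2 fold change 0.93, SE 0.21, adjusted p = 0.0282). Cald1 at another probe set read 1078, 632 and 865 in the double knockout, 605, 435 and 578 in Mig-6 d/d and 987, 1088 and 835 in control uteri and was called lower in Mig-6 d/d uteri than in control (log2 fold change -0.85, SE 0.20, adjusted p = 0.0464). Synpo2 disagreed in direction between the double knockout and control: the probe set used was not called (log2 fold change -0.24), while another, which read 19.7, 15.4 and 15.3 in the double knockout, 6.87, 7.13 and 7.46 in Mig-6 d/d and 9.48, 10.9 and 7.63 in control uteri, was called higher (log2 fold change 0.85, SE 0.15, adjusted p = 0.0422). When the log2 values of a gene's probe sets were averaged, 7 genes were called in Mig-6 d/d against control and 19 in the double knockout over Mig-6 d/d. The share of all genes called was not taken for these averages. The calls of Synpo2 (-0.46) and Kcnma1 (-0.29) ended in Mig-6 d/d against control. In the double knockout over Mig-6 d/d those of Tpm1 (0.42), Ppp1r12b (0.31), Des (0.58), Csrp1 (0.73) and Kcnma1 (0.23) ended, each value being the averaged log2 fold change. Averaging gained a call for Flna in Mig-6 d/d against control. It gained those of Acta2, Cacna1c, Mylk and Tagln in the double knockout over Mig-6 d/d.

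Genes that work with the contractile apparatus but are not among the 36 were read from 4 lists. Of all genes, 1.81% were called lower and 2.55% higher in Mig-6 d/d against control. In the double knockout over Mig-6 d/d 3.73% were called higher and 3.76% lower. These shares belong beside the counts from all 9 arrays, of the 4 lists and of the marker lists below. Without the array labelled Mig-6 d/d replicate 3, 122 of 18193 genes (0.671%) were called lower and 145 higher in Mig-6 d/d against control. In the double knockout over Mig-6 d/d, 453 (2.49%) were then called higher and 394 lower. These belong beside the counts without that array. Of 33 measured genes of dense plaques and focal adhesions, 7 were called lower in Mig-6 d/d uteri than in control (median log2 fold change -0.46) and 13 higher in the double knockout than in Mig-6 d/d (median 0.48). Without the array labelled Mig-6 d/d replicate 3 these counts were 3 and 9. Fhl1, a LIM protein of muscle, had log2 fold change -0.79, adjusted p = 0.0267 and log2 fold change 0.90, adjusted p = 0.00919. Itga1, a collagen receptor subunit, had log2 fold change -0.73, adjusted p = 0.0235 in Mig-6 d/d against control, and Zyx (zyxin), a focal adhesion protein, had log2 fold change 1.13, adjusted p = 0.0157 in the double knockout over Mig-6 d/d. Of 28 genes of contractile signalling, such as receptors and phosphodiesterases, 1 was called lower in Mig-6 d/d uteri than in control. This was Pde5a, which degrades cyclic GMP (log2 fold change -0.86, adjusted p = 0.0194). Another 3 were called higher in the double knockout than in Mig-6 d/d, led by Ppp1r12c (log2 fold change 0.85, adjusted p = 0.0194) and Cacnb2 (log2 fold change 0.75, adjusted p = 0.00598). The medians were -0.36 and 0.40. Without the array labelled Mig-6 d/d replicate 3 the counts were 2 and 4.

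Among 20 cofactors and antagonists of SRF, 1 was called in each direction in both comparisons (5.0% each way). Of all genes, 2.55% were called higher and 1.81% lower in Mig-6 d/d against control, and 3.73% and 3.76% in the double knockout over Mig-6 d/d. Klf4 is a repressor of smooth muscle genes, and the paper also describes it as raised by estrogen. It read 237, 217 and 433 in the double knockout, 740.5, 461 and 764 in Mig-6 d/d and 352, 191 and 228 in control uteri. It was highest on the 3 Mig-6 d/d arrays (log2 fold change 1.36, adjusted p = 0.0417 for Mig-6 d/d against control and log2 fold change -1.18, adjusted p = 0.0475 for the double knockout over Mig-6 d/d). Mef2c, a factor that acts with SRF in muscle, read 101, 95.6 and 89.3 in the double knockout, 60.0, 50.5 and 57.5 in Mig-6 d/d and 99.5, 97.5 and 94.7 in control uteri. It went the other way (log2 fold change -0.80, adjusted p = 0.00819 and log2 fold change 0.77, adjusted p = 0.00335). The part of Klf4 or Mef2c in the smooth muscle result was not tested. Another list held 21 measured genes of cytoplasmic actin and myosin and of proteins that act on them, such as calponins, tropomyosins and cofilins. Of these 1 was called, the calponin gene Cnn2. It was lower in Mig-6 d/d uteri than in control (log2 fold change -0.59, adjusted p = 0.0276) and higher in the double knockout than in Mig-6 d/d (log2 fold change 0.88, adjusted p = 0.00380). The medians were 0.06 and 0.04. When the array labelled Mig-6 d/d replicate 3 was left out, Mef2c stayed called in both comparisons and Klf4 in neither. Of the 21 genes of the cytoplasmic list, 0 and 1 were then called. None of these 4 lists had a call between the double knockout and control, where the smallest p belonged to Pde5a, Sorbs2, Elk1 and Tmsb4x (adjusted p = 0.688, 0.118, 0.549 and 0.543).

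Epithelial markers went the other way from the smooth muscle genes. The summed intensity of the 36 smooth muscle genes ranged from 43310 to 51420 in the double knockout, from 24180 to 32920 in Mig-6 d/d and from 37090 to 46070 in control uteri. For 19 epithelial markers it ranged from 3699 to 5131 in the double knockout, from 10040 to 14300 in Mig-6 d/d and from 4174 to 7262 in control uteri. Of these 19, 11 were called higher in Mig-6 d/d uteri than in control, led by Krt7 (log2 fold change 2.61, adjusted p = 0.0442) and Cldn7 (log2 fold change 2.15, adjusted p = 0.00819), and 14 were called lower in the double knockout than in Mig-6 d/d (median log2 fold change -1.34). Without the array labelled Mig-6 d/d replicate 3 these counts were 2 and 10. Within the Mig-6 d/d group, replicate 2 had the lowest sum of both lists. The part of epithelium in the smooth muscle result was not tested.

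Endothelial and stromal markers went in the same direction as the smooth muscle genes. Of 18 endothelial markers, 8 were called lower in Mig-6 d/d uteri than in control, led by Tek (log2 fold change -1.04, adjusted p = 0.0267) and Ptprb (log2 fold change -0.92, adjusted p = 0.0104), with a median log2 fold change of -0.73. In turn 9 were called higher in the double knockout than in Mig-6 d/d, with a median of 0.61. Leaving out the array labelled Mig-6 d/d replicate 3 gave 6 and 7. Their summed intensity ranged from 2399 to 2958 in the double knockout, from 2004 to 2590 in Mig-6 d/d and from 2833 to 3247 in control uteri. Of 17 stromal markers, 4 were called lower in Mig-6 d/d uteri than in control, led by Twist2 (log2 fold change -0.73, adjusted p = 0.0363) and Dpt (log2 fold change -0.64, adjusted p = 0.0280), and 4 higher in the double knockout than in Mig-6 d/d, led by Col1a1 (log2 fold change 0.85, adjusted p = 0.0154), with medians of -0.58 and 0.55. Leaving out that array gave 0 and 3. Their summed intensity ranged from 32170 to 34260 in the double knockout, from 23510 to 27690 in Mig-6 d/d and from 28530 to 33010 in control uteri. Pdgfrl was the only marker on any list that was called between the double knockout and control (log2 fold change -0.78, adjusted p = 0.0188). Of 14 pericyte markers, the cells that wrap small vessels, 2 were called lower in Mig-6 d/d uteri than in control, Vtn (log2 fold change -0.97, adjusted p = 0.0191) and Kcnj8 (log2 fold change -0.90, adjusted p = 0.00865), and 3 were called higher and 1 lower in the double knockout than in Mig-6 d/d, with medians of -0.45 and 0.37. Leaving out that array gave 2 in the first comparison, and 1 higher and 0 lower in the second. Their summed intensity ranged from 2974 to 3581 in the double knockout, from 2634 to 2994 in Mig-6 d/d and from 3484 to 3913 in control uteri. No listed marker was at 0 on any array. Genes near the floor, such as Myod1 below, also read above 0, so this does not show which cell types were present. The part of these cell types in the smooth muscle result was not tested.

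Leukocyte markers did not move together: of 14, Cd14 was called higher in Mig-6 d/d uteri than in control (log2 fold change 0.84, adjusted p = 0.0104) and Csf1r lower (log2 fold change -0.67, adjusted p = 0.0326), with a median of 0.01. Without the array labelled Mig-6 d/d replicate 3, 1 was called higher and 0 lower. None of 26 markers of striated muscle was called, and the smallest p in Mig-6 d/d against control belonged to Tnni2 (log2 fold change -0.62, adjusted p = 0.0628). Some of the 26 were far above the floor. Acta1 read 1170, 713.5 and 697 in the double knockout, 511, 302 and 363 in Mig-6 d/d and 815, 916 and 243 in control uteri. Its double knockout arrays exceeded its Mig-6 d/d arrays without a call (log2 fold change 1.13, adjusted p = 0.183). The skeletal muscle regulators Myod1 and Myog were near the floor of the table, at 4.25, 3.80 and 4.36 in the double knockout, 4.01, 3.48 and 4.05 in Mig-6 d/d and 3.74, 4.21 and 3.86 in control uteri for Myod1 and 4.82, 4.96 and 4.79 in the double knockout, 4.79, 4.36 and 5.59 in Mig-6 d/d and 4.09, 5.34 and 4.10 in control uteri for Myog. None of 10 markers of mesothelium and none of 10 of nerve and interstitial cells of Cajal was called, the smallest p being that of Upk1b (log2 fold change -0.58, adjusted p = 0.0714) and Ano1 (log2 fold change -0.84, adjusted p = 0.0511) in Mig-6 d/d against control.

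**Figure D4:**
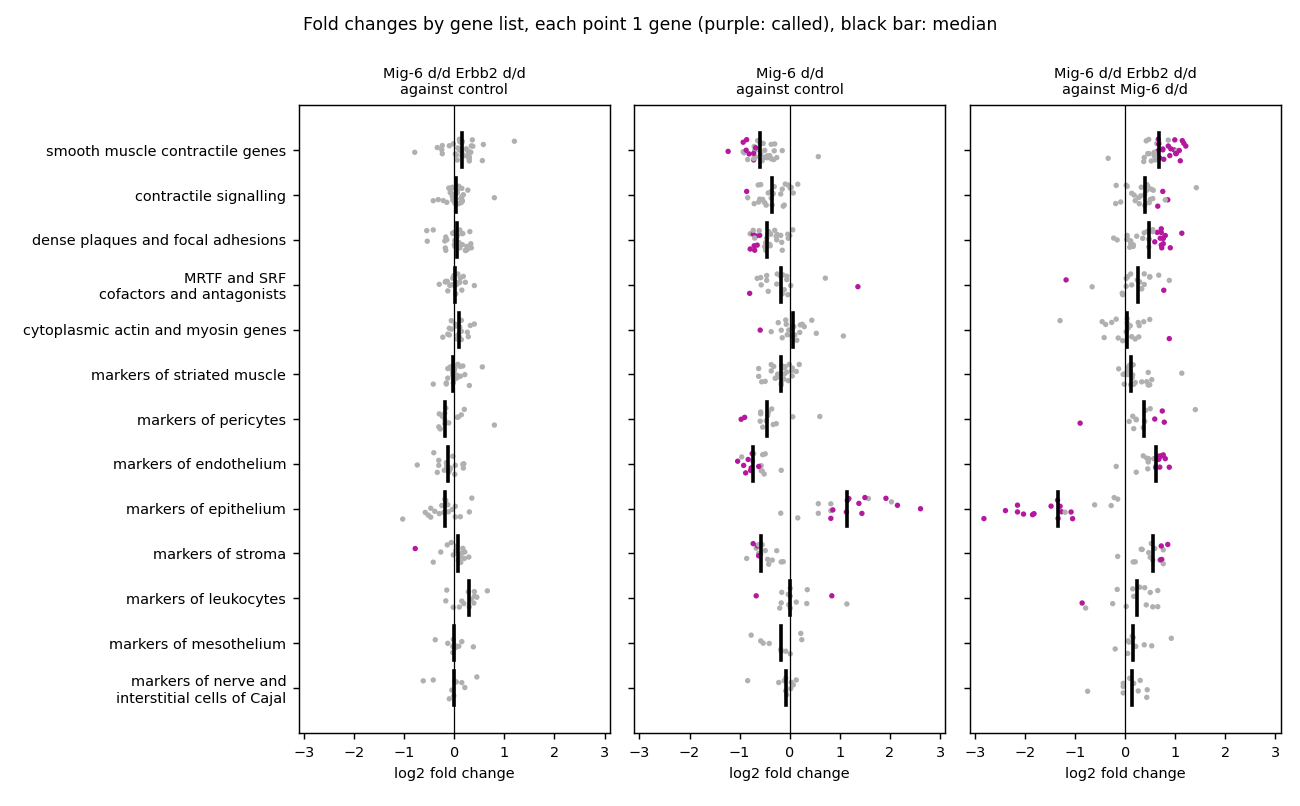
Log2 fold changes of the genes of each list (points, purple where called) with the list's median (black bar) in the double knockout against control, Mig-6 d/d against control and the double knockout over Mig-6 d/d. Smooth muscle, dense plaque, endothelial and stromal lists lie left of 0 in the middle and right of 0 on the right, and the epithelial list lies on the opposite sides.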

How the data were processed

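RNA of whole mouse uteri on GD 3.5 was measured on 9 arrays, 3 per genotype. The deposited intensities, on a linear scale, come from RMA (robust multi-array averaging) with quantile normalization by the authors. No version is given in the sources used here. Neither scanner files nor detection calls were used here, which leaves signal over background unknown. Precision is limited by having 3 arrays per group. Probe sets were named from the platform annotation: 34945 had 1 gene symbol, 932 several and 9160 none. A gene with several probe sets was read at the brightest one on average.

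Log2 intensities were fitted with limma 3.58.1 under R 4.3.3 (lmFit, then eBayes, 3 groups in 1 model, two-sided), and p-values were adjusted by Benjamini-Hochberg over 45037 probe sets. In this fit, tested on simulated data of Mig-6 d/d against control with 45037 probe sets, 26.0% of 1.5-fold changes and 88.0% of 2-fold changes were called. Each fold was planted in 50 probe sets with a mean above an intensity of 50, with normal noise. Dimmer members such as Kcnma1 and Kcnmb1 were not covered. A planted 1.5-fold change lies at the fold limit itself, so its estimate often falls under it. Members and the 12 lists (230 of 244 genes measured) were chosen with earlier results of these data known, and no list has a p-value of its own. Array values were given for every called member and for Acta2, Myh11, Cnn1, Des, Myocd and Srf. Up to 2 genes of each list were named per comparison, the largest called changes or, with none called, the smallest p. Array values of Itga8, Oxtr, further probe sets, Klf4 and Mef2c were added, and Myod1, Myog and Acta1 named, after their values were seen. Alternatives were no fold limit, a filter on dim probe sets, other normalizations and variance models, only the 6 arrays compared, the replicate number as a block, the mean over probe sets, the methods' t-test and each array left out in turn. Counts of the lists and of groups without overlap were taken again without Mig-6 d/d replicate 3, an alternative chosen after seeing the data. Plots used matplotlib 3.10.9 in Python 3.11.15. Samples outside these arrays and the human and RT-qPCR data of the study were not analysed here.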

Additional observations from a re-analysis of the deposited data

How the results depend on the processing

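The direction of the median over the 36 genes was the same under every alternative: from -0.68 to -0.39 in Mig-6 d/d against control, from 0.08 to 0.27 in the double knockout against control and from 0.57 to 0.79 in the double knockout over Mig-6 d/d. The number called in Mig-6 d/d against control was 4 with only the 6 arrays compared and from 2 to 7 with each array left out in turn. In the double knockout over Mig-6 d/d it was from 7 to 20 with each array left out, and in the double knockout against control it was 1 (Itga8) with the methods' t-test and 0 under all other alternatives. Among refits with an array left out, shares of all genes were taken only without Mig-6 d/d replicate 3. There 0.671% were called lower in Mig-6 d/d against control and 2.49% higher in the double knockout over Mig-6 d/d. The methods' t-test, without adjustment, called 11 lower in Mig-6 d/d against control, against 2.66% of all genes. It called 21 higher in the double knockout over Mig-6 d/d, against 4.64% of all genes. Both counts were 0 after Benjamini-Hochberg adjustment. Centring each array on its median gave 6, 0 and 15 called in Mig-6 d/d against control, the double knockout against control and the double knockout over Mig-6 d/d. No share of all genes called was taken after centring, with only the 6 arrays compared, with the replicate block or with averaged probe sets.

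The replicate numbers do not pair the arrays: deviations of same-numbered arrays from their group means correlated from -0.13 to 0.20. With the replicate number as a block, 7 were called in Mig-6 d/d against control, 0 in the double knockout against control and 15 in the double knockout over Mig-6 d/d, where Cnn1, Smtn, Ppp1r12b, Synpo2 and Csrp1 lost their call, as they did after centring. Over the 28 calls of single genes, 354 refits kept the call, 122 lost it and 0 turned its direction, and the cause was not tested. Changes near 1.5-fold are at the limit of 3 arrays per group.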
